A study of Mus musculus with 15 samples.

Results

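The genes described here encode proteins of the mitochondrial ribosome. They were the 76 genes whose mouse symbol begins with Mrpl or Mrps and a digit and that had a probe set assigned to them alone, out of 18193 genes represented on the arrays in the same way. The probe set with the highest mean signal stood for each gene. The symbol set the list of members, and no cut on a response did. The family itself was chosen with earlier results of these data known. RefSeq lists 78 protein-coding genes with such a symbol. The other two, Mrpl30 and Mrpl53, were seen only by probe sets shared with a neighbouring gene and were not analysed here. All 76 members were among the 13160 genes tested, and each lay at or above the median of its array on all 15 arrays.

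The RNA came from B cells of AM-14 mice, which carry a transgenic B cell receptor that binds self IgG, so all 5 groups shared that receptor. PL2-3, a chromatin-binding antibody, was given in the form of chromatin immune complexes. The other treated groups received anti-IgM together with CpG, a CpG phosphorothioate oligodeoxynucleotide alone, or F(ab')2 fragments of goat anti-mouse IgM alone, and the untreated group was kept in media. Each group had 3 arrays. Anti-IgM crosslinks the B cell receptor, CpG is taken up and binds the endosomal DNA receptor TLR9, and PL2-3 complexes engage the AM-14 receptor and carry DNA to TLR9. The sources used here give no doses, times, strain or age of the mice, and do not say whether replicates came from separate mice.

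Mitochondria keep their own ribosome, which translates the few proteins encoded by mitochondrial DNA, all of them membrane subunits of the respiratory chain and the ATP synthase. Its ribosomal RNAs are mitochondrial, but every one of its proteins is encoded in the nucleus, made in the cytosol and imported. Some of these proteins descend from bacterial ribosomal proteins and others have no bacterial counterpart. A resting B cell that is activated grows before it divides and builds up its mitochondria, which gives the family its interest in these cells.

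The 15 arrays had median signals of 263 to 514. B cell markers were high in every group, with 7 of 7 measured markers above the array median. By the same measure 6 of 7 myeloid and 4 of 4 plasma cell markers passed in every group. Of 4 measured NK cell markers 3 or 4 did, so this measure alone does not set B cells apart. The summed signal of 7 myeloid markers was 47163 to 76873 with PL2-3, 10638 to 143758 with anti-IgM+CpG, 45151 to 88308 with CpG and 52021 to 91169 with anti-IgM, against 111117 to 236291 in media. That of 5 measured T cell markers was 1372 to 3005 on the stimulated arrays, against 4643 to 4838 in media. That of 7 B cell markers was 211100 to 427492 on the stimulated arrays, against 387527 to 682302 in media. The part of these markers in the results below was not tested. In bulk RNA, fewer cells of a type and less RNA per cell cannot be told apart.

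The 3 arrays of the group given both agents differed from the rest in ways that touch every result with that group. Xist, the RNA of the silenced X chromosome, had a signal of 321 to 589 on them, against 4252 to 15543 on the other 12. The labels give the Enzo kit for replicates 1 and 2 and the Ambion kit for replicate 3 of every group. The 5′ to 3′ signal ratio of the beta-actin control was 0.105 to 0.193 with anti-IgM+CpG. In the remaining groups this ratio was 0.335 to 0.747 with the Enzo kit and 0.108 to 0.201 with the Ambion kit. Replicates 1 and 2 with anti-IgM+CpG, labelled Enzo, had 0.105 and 0.193 and lay outside the Enzo range. Replicate 3, labelled Ambion, had 0.177 and lay within the Ambion range. Values with both agents use the kit as labelled, and where it is said they are given again with the kit read from the actin ratio, which counts all 3 arrays with the Ambion ones.

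Many transcripts of the mitochondrial ribosome rose with each stimulus. Of the 76 members, 43 rose with PL2-3, 61 with anti-IgM+CpG, 46 with CpG and 29 with anti-IgM, each against media, and 0 fell in any of these comparisons (limma, Benjamini-Hochberg adjusted p under 0.05; 0 also fell at an unadjusted p under 0.05). Among all genes tested, 12.4% rose with PL2-3, 17.2% with anti-IgM+CpG, 13.1% with CpG and 10.1% with anti-IgM. The shares of all genes that fell were 13.5%, 24.8%, 16.9% and 9.32% in the same order. The 29 members that rose with anti-IgM also rose with the other 3 stimuli. Set against the median of all genes on the same arrays, the median member was higher by 0.69 with PL2-3, 1.24 with anti-IgM+CpG, 0.91 with CpG and 0.59 with anti-IgM on the log2 scale. That with anti-IgM+CpG was 0.77 with the kit read from the actin ratio. These comparisons share the media arrays.

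**Figure D1:**
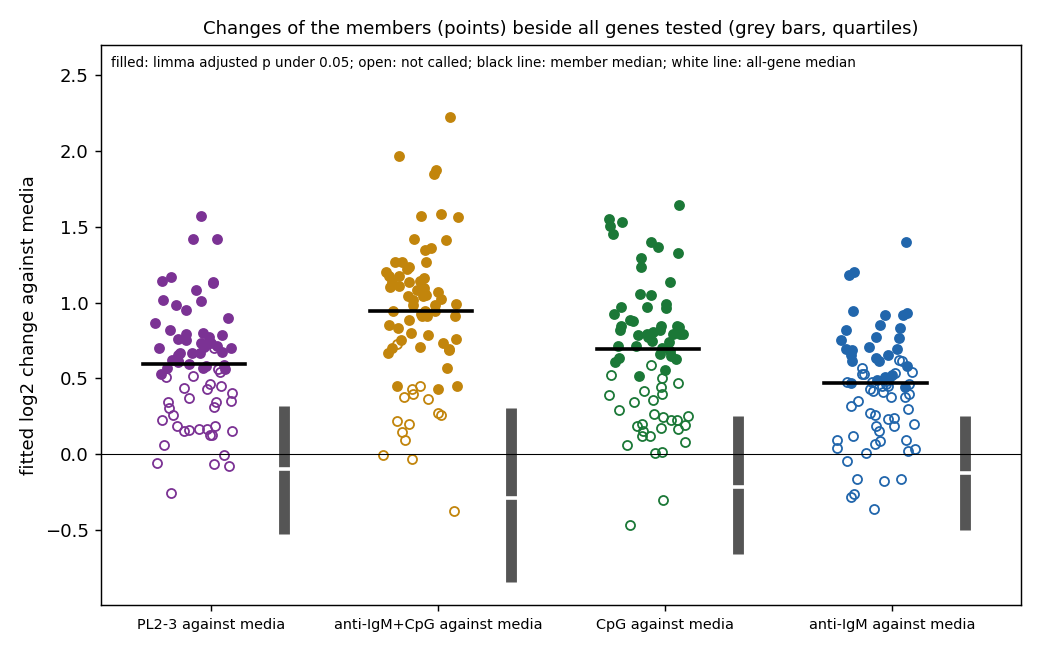
Fitted log2 change against media (vertical axis) of each of the 76 members for PL2-3, anti-IgM+CpG, CpG and anti-IgM (horizontal axis). Filled points passed the test, open points did not, black lines are the member medians, and grey bars span the quartiles of all genes tested with their median in white. The member medians of 0.59, 0.95, 0.69 and 0.47 lie above the all-gene medians, which are between -0.29 and -0.10.

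Mrpl12 had the highest mean signal of the family and the largest rise in every comparison against media. Its protein forms the flexible stalk of the large subunit that recruits translation factors, the place of L12 in bacteria, and in human cells it has also been reported to bind the mitochondrial RNA polymerase. The gene lies at chr11:120484637-120488754 in GRCm38.p6. Its signals were 16490.1, 14146 and 30199 with PL2-3, 25766, 30247 and 35256 with anti-IgM+CpG, 17518, 16042 and 29214 with CpG, 15557, 11447 and 27522 with anti-IgM, against 6655, 6330.4 and 6237 in media. The 12 stimulated arrays all lay above the 3 media arrays, and replicate 3 was the highest of each stimulated group. The fitted log2 change was 1.57 ± 0.21 with PL2-3, 2.22 ± 0.21 with anti-IgM+CpG, 1.64 ± 0.21 with CpG and 1.40 ± 0.21 with anti-IgM (SE; limma adjusted p 6.64e-05, 1.16e-06, 3.13e-05 and 0.000289), or 2.97-, 4.67-, 3.13- and 2.63-fold. With the kit read from the actin ratio the change with both agents was 1.76 (limma adjusted p = 2.25e-05).

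Mrps6 and Mrps28 were the small-subunit members named for the size of their rise against media. Mrps6 is the mitochondrial form of the bacterial small-subunit protein S6. It had signals of 12884, 9240.4 and 17806 with PL2-3, 17629, 18922 and 20012 with anti-IgM+CpG, 12863, 10686 and 18590.5 with CpG, 11735, 8349.5 and 13884 with anti-IgM, against 5585, 4811 and 4031 in media. Its lowest stimulated array, an anti-IgM one, lay above the highest media array. The log2 change was 1.42 ± 0.22 with PL2-3, 1.96 ± 0.22 with anti-IgM+CpG, 1.51 ± 0.22 with CpG and 1.20 ± 0.22 with anti-IgM (SE; limma adjusted p 0.0002, 4.72e-06, 9.28e-05 and 0.00112), and its second probe set changed by 1.35, 1.58, 1.44 and 1.05 in the same order. Mrps6 changed by 1.72 with both agents with the kit read from the actin ratio. Mrps28 is another protein of the small subunit. It had signals of 8476, 6263 and 14166 with PL2-3, 13616, 14865 and 15524 with anti-IgM+CpG, 9363, 7454 and 14147 with CpG, 7364, 5552 and 11568 with anti-IgM, against 3611, 3816 and 4679 in media. Here too no stimulated array overlapped the media arrays. Its changes were 1.17 ± 0.19 with PL2-3, 1.85 ± 0.19 with anti-IgM+CpG, 1.30 ± 0.19 with CpG and 0.95 ± 0.19 with anti-IgM (SE; limma adjusted p at most 0.00279), and that with both agents was 1.37 with the kit read from the actin ratio. With CpG the rise of Mrps10, of the same subunit, was 1.37 ± 0.16 (SE; limma adjusted p = 1.44e-05), above that of Mrps28.

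Mrpl15, Mrpl17, Mrpl22 and Mrpl42 were other large-subunit members named for the size of their changes. Mrpl15, a core protein with a bacterial counterpart, had signals of 14002, 12619 and 13562 with PL2-3, 13329, 13846 and 17706 with anti-IgM+CpG, 13600.4, 13075 and 12787 with CpG, 11229.9, 11416 and 11333 with anti-IgM, against 5113, 4206 and 5628 in media. All 12 stimulated arrays were above the media arrays, and the 3 anti-IgM arrays lay close together on both kits (SD 93.5). The changes were 1.42 ± 0.14, 1.57 ± 0.14, 1.40 ± 0.14 and 1.18 ± 0.14 with PL2-3, anti-IgM+CpG, CpG and anti-IgM (SE; limma adjusted p at most 5.42e-05). Of its 8 probe sets the chosen one has an identifier that marks possible cross-hybridisation, and 2 dimmer ones that passed the filter changed by -0.37 and -0.32 with anti-IgM+CpG, with 1 of these at -0.01 with PL2-3.

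Mrpl17, the counterpart of bacterial L17, had signals of 13724, 13832 and 20930.3 with PL2-3, 21779, 20783 and 21570.1 with anti-IgM+CpG, 17818, 17928 and 24256 with CpG, 13284, 11795 and 16702 with anti-IgM, against 6677, 7157 and 7791 in media. Mrpl22, whose bacterial counterpart lines the tunnel through which the new protein leaves, had signals of 9634, 7981 and 15463 with PL2-3, 17983, 15201 and 20447 with anti-IgM+CpG, 13283, 11321 and 18780.3 with CpG, 7789, 4857 and 12802 with anti-IgM, against 4381, 4188 and 5942 in media. Mrpl42, a protein without a bacterial counterpart, had signals of 9086, 6986 and 15476 with PL2-3, 12135, 12860.2 and 15964 with anti-IgM+CpG, 10225, 9592 and 14793 with CpG, 6074, 7131 and 14201 with anti-IgM, against 4382, 4937 and 4138 in media. Every stimulated array was above every media array for Mrpl17 and Mrpl42, while for Mrpl22 anti-IgM replicate 2 lay below media replicate 3. In each of these genes the CpG values of replicates 1 and 2 were above the anti-IgM values of those replicates. With PL2-3, Mrpl17 rose by 1.13 ± 0.14, Mrpl22 by 1.14 ± 0.19 and Mrpl42 by 1.14 ± 0.22 on the log2 scale (SE; limma adjusted p at most 0.00108). With anti-IgM the same genes rose by 0.93 ± 0.14, 0.71 ± 0.19 and 0.92 ± 0.22 (SE; limma adjusted p at most 0.0148). Mrpl17 was the 1 member of 11 with another passing probe set that had one in the opposite direction with anti-IgM (-0.26, at a mean signal of 664 against 15735 for the chosen one). Its other passing probe set, at a mean signal of 259, changed by -0.35 with PL2-3 and -1.20 with anti-IgM+CpG.

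**Figure D2:**
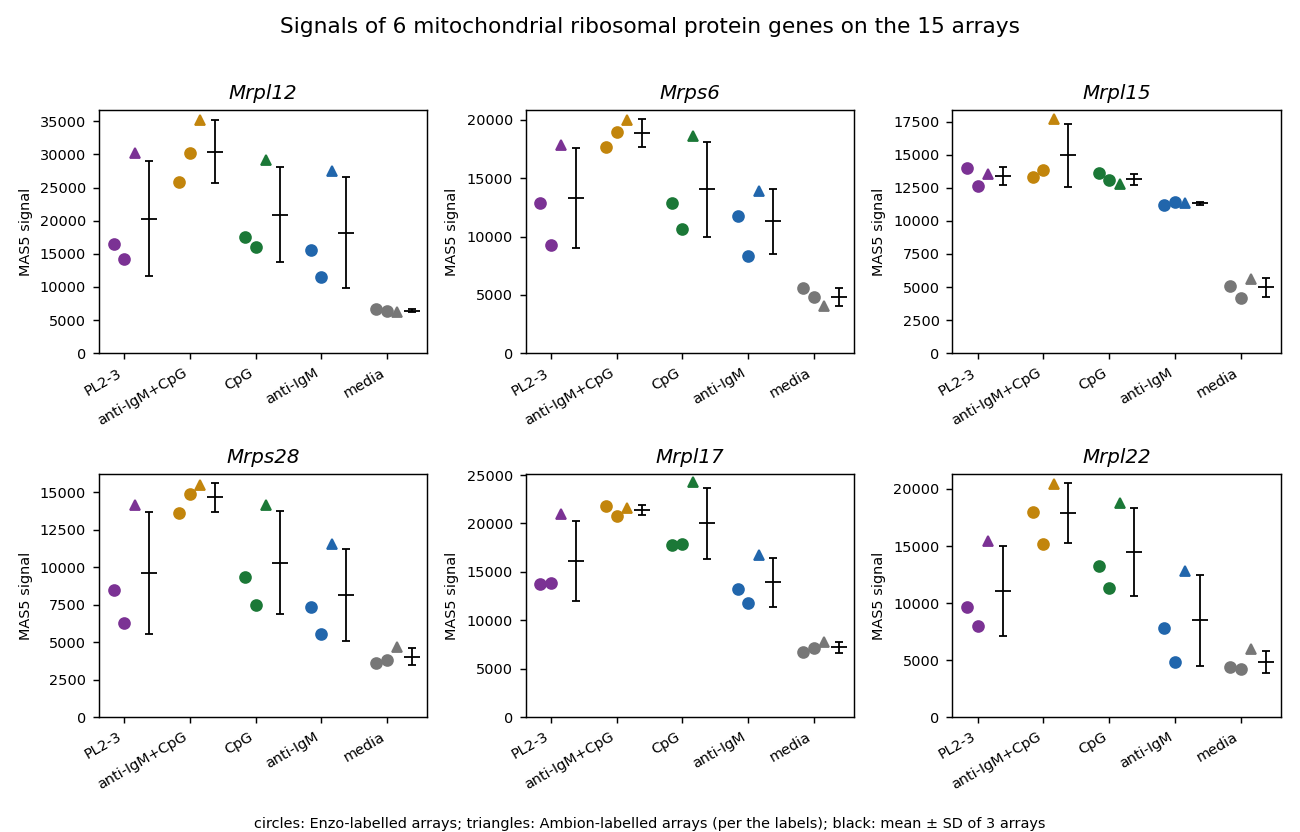
MAS5 signal on a linear scale (vertical axis, from 0) of Mrpl12, Mrps6, Mrpl15, Mrps28, Mrpl17 and Mrpl22 on each array, by group (horizontal axis). Circles are Enzo and triangles Ambion arrays per the labels, and black bars are the mean ± SD of 3 arrays. The media arrays are below all 12 stimulated arrays in each gene but Mrpl22, where 1 anti-IgM array overlaps them, and for Mrpl12, Mrps6, Mrps28 and Mrpl22 the Ambion array is the highest of each stimulated group.

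With PL2-3, the chromatin immune complexes, 43 of 76 members rose (56.6%) and the median change was 0.59, against -0.10 for all genes tested. All 3 PL2-3 arrays lay above all 3 media arrays for 39 members, or 51.3%, against 14.7% of all genes. The median was 0.49 within the Enzo arrays and 0.81 within the Ambion pair. The 5 largest rises were those of Mrpl12, Mrpl15, Mrps6, Mrps28 and Mrpl42. Leaving out media replicate 3 took the count to 25, and leaving out PL2-3 replicate 3 also lowered it by over 1.5 times. Without a labelling term 26 members rose, against 9.57% of all genes, and on Enzo arrays alone 26 did, against 8.92%.

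With CpG, 46 members rose (60.5%) and the median change was 0.69, against -0.21 for all genes tested. Mrpl12, Mrpl22, Mrpl19, Mrps6 and Mrpl17 led, with log2 changes of 1.64, 1.55, 1.53, 1.51 and 1.45 (limma adjusted p at most 9.28e-05). Mrpl19 is the counterpart of bacterial L19, a protein at the face where the subunits meet. It had signals of 3232, 2973 and 4659 with PL2-3, 3421, 5835 and 5027 with anti-IgM+CpG, 5125, 5492 and 7546 with CpG, 2446, 3065 and 4831 with anti-IgM, against 1949, 2019 and 2079 in media. The 3 CpG arrays were above every PL2-3 and anti-IgM array. Mrpl19 was measured by 4 probe sets, of which the chosen one and the next brightest rose with CpG by 1.53 and 1.31, a dimmer one changed by 0.15 and the dimmest by -0.63. The separation of groups for the family was 45 of 76 members (59.2%), against 15.9% of all genes, and the median was 0.60 within Enzo and 0.86 within Ambion arrays.

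With anti-IgM, 29 members rose (38.2%) and the median change was 0.47, against -0.13 for all genes tested. The rise was led by Mrpl12, Mrps6, Mrpl15, Mrps28 and Mrpl17, and 28 members separated the groups (36.8%), against 13.4% of all genes. The count moved with the processing: it was 14 without a labelling term, 9 on the Enzo arrays alone and 12 without anti-IgM replicate 3, and it also fell by over 1.5 times without anti-IgM replicate 1 or media replicate 3. The 9 members called on Enzo arrays alone were Mrpl12, Mrpl15, Mrpl17, Mrps2, Mrps6, Mrps10, Mrps17, Mrps28 and Mrps34, and 5.85% of all genes rose there. Without a labelling term 7.41% of all genes rose. The median was 0.36 within Enzo and 0.66 within Ambion arrays. The change was positive for 69 of the 76 members.

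With anti-IgM+CpG, 61 members rose (80.3%) and the median change was 0.95, against -0.29 for all genes tested, with 63 members above all media arrays (82.9%, against 18.9% of all genes). With the kit read from the actin ratio, 40 members rose, against 14.2% of all genes, and the median was 0.57. Within the Enzo arrays the median was 1.02, and within the Ambion pair it was 0.77. The 5 largest rises were those of Mrpl12, Mrps6, Mrpl22, Mrps28 and Mrpl42. For 57 of 76 members the change with both agents was the largest of the 4 with the kit as labelled, while with the kit read from the actin ratio it was the largest for 19 and that with CpG for 41. On Enzo arrays alone 59 members rose with both agents, against 14.7% of all genes, and 1, Mrpl45, fell. Another passing probe set went the opposite way for 19 of 34 called members that had one, against 1 of 11 with anti-IgM, 7 of 20 with CpG and 6 of 19 with PL2-3.

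**Figure D3:**
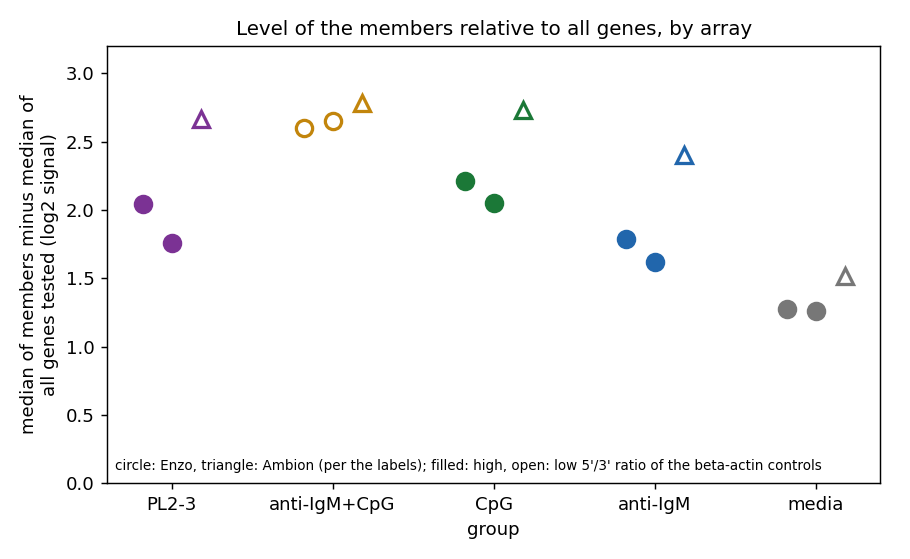
Median log2 signal of the 76 members minus the median of all genes tested (vertical axis, log2 units) on each array, by group (horizontal axis). Circles are Enzo and triangles Ambion arrays per the labels, and open symbols are arrays with a low 5′ to 3′ actin ratio. The PL2-3 arrays lie at 1.76 to 2.67, the anti-IgM+CpG arrays at 2.60 to 2.78, the CpG arrays at 2.05 to 2.73 and the anti-IgM arrays at 1.62 to 2.40, against 1.26 to 1.51 for the media arrays.

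The members fell into a few patterns of calls across the 4 stimuli. Besides the 29 called with all of them, 14 rose with PL2-3, anti-IgM+CpG and CpG and were not called with anti-IgM, 2 (Mrpl55 and Mrps31) rose with anti-IgM+CpG and CpG, and Mrpl14 was called with CpG alone. A further 16 members were called with both agents and with no other stimulus. With the kit read from the actin ratio, 1 of those, Mrps33, was called with both agents, and there it was called with CpG too. In that fit Mrpl51, Mrpl57 and Mrps14 were called with CpG and not with both agents. The remaining 14 were not called in any of the 4 comparisons. They were Mrpl4, Mrpl9, Mrpl10, Mrpl18, Mrpl24, Mrpl33, Mrpl39, Mrpl43, Mrpl44, Mrpl45, Mrpl48, Mrpl49, Mrps16 and Mrps36. The protein of Mrps36 is now assigned to the alpha-ketoglutarate dehydrogenase complex and not to the ribosome. Of all genes tested, 7.64% rose with PL2-3, CpG and anti-IgM alike, against 29 of the 76 members. Taken singly, 12.4% of all genes rose with PL2-3, 17.2% with anti-IgM+CpG, 13.1% with CpG and 10.1% with anti-IgM. The shares of all genes with the other patterns are not given here, so those counts are no trait of the family. A difference between stimuli is tested only in the direct comparisons given below.

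Mrpl33 and Mrpl48 were among the members that were not called. Mrpl33, counterpart of a small bacterial protein near the exit site for transfer RNA, had signals of 2438, 2475 and 2879 with PL2-3, 3012, 6618 and 2958 with anti-IgM+CpG, 1173, 1589 and 2455 with CpG, 3187, 2431 and 4261 with anti-IgM, against 1922, 2360.2 and 2772 in media. Its anti-IgM+CpG arrays were above the media arrays, 2 of the 3 CpG arrays were the lowest of all, and the PL2-3 and anti-IgM arrays overlapped those of media. The change was 0.15 ± 0.29 with PL2-3, 0.73 ± 0.29 with anti-IgM+CpG, -0.47 ± 0.29 with CpG and 0.45 ± 0.29 with anti-IgM (SE; limma adjusted p at least 0.0572). Mrpl48, a protein of the large subunit without a bacterial counterpart, had signals of 2962, 2804 and 4237 with PL2-3, 3076, 4977 and 3983 with anti-IgM+CpG, 2383, 2358 and 3779.5 with CpG, 2676, 1647 and 4173 with anti-IgM, against 2928, 2793 and 4904 in media. Its changes lay between -0.36 with anti-IgM and 0.20 with anti-IgM+CpG, the limma adjusted p was at least 0.298, and the groups overlapped. The probe set used has an identifier that marks possible cross-hybridisation. Another, of nearly the same mean signal (3285 against 3312), changed by 0.64 with PL2-3, 1.12 with anti-IgM+CpG, 0.80 with CpG and 0.58 with anti-IgM, so the value for Mrpl48 depends on the probe set.

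**Figure D4:**
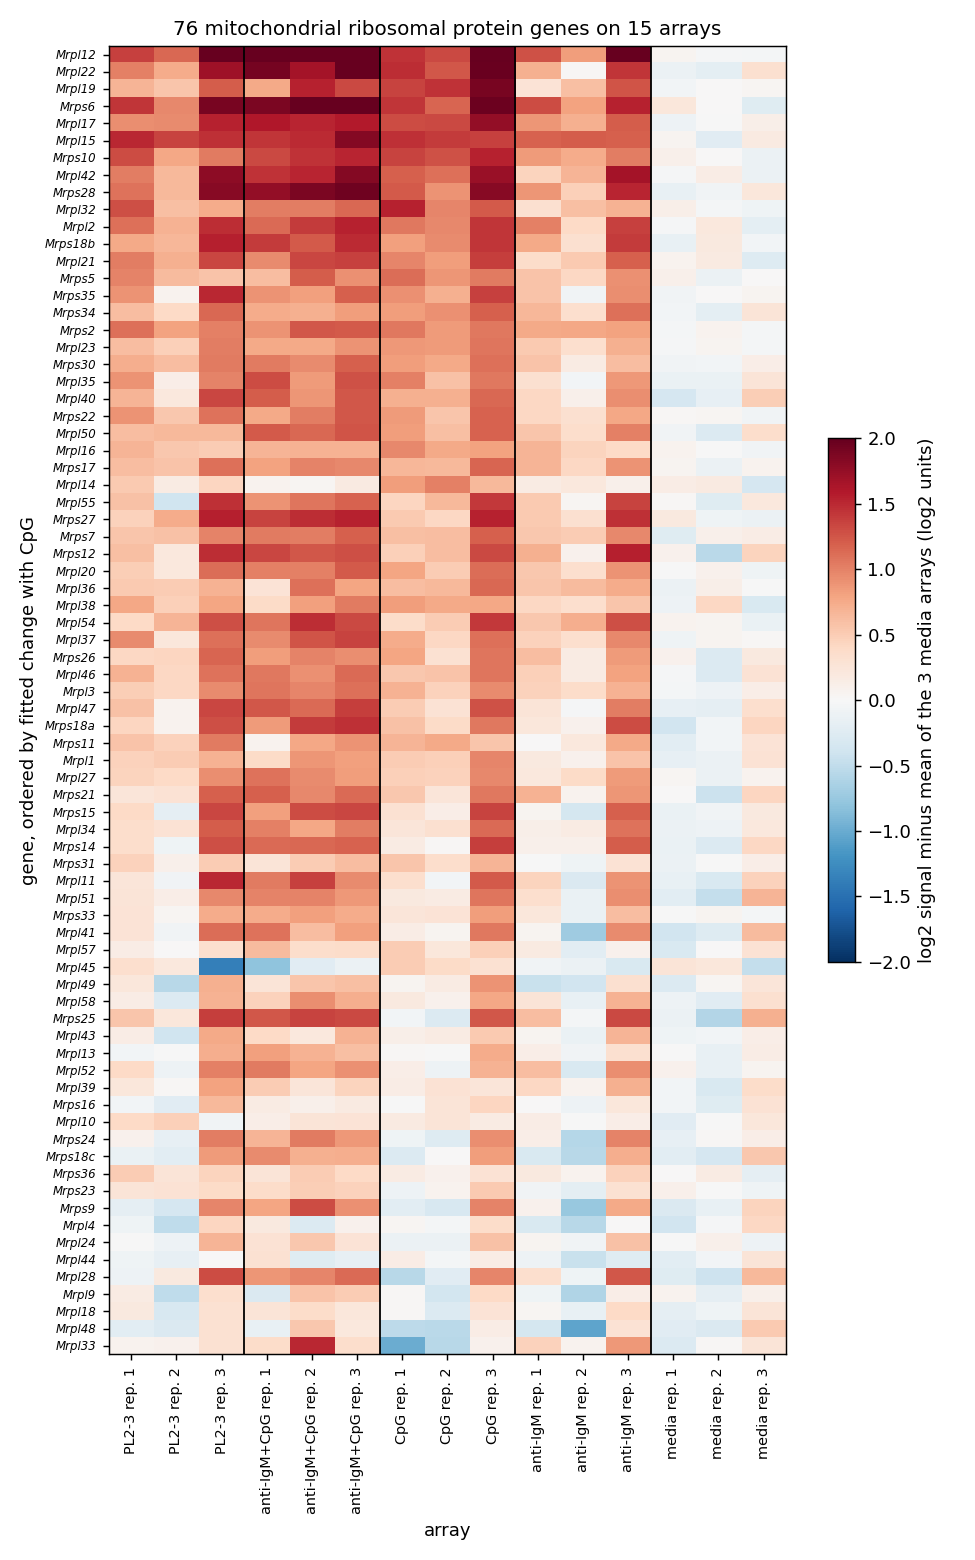
Log2 signal of each of the 76 members (rows, ordered by fitted change with CpG) on each of the 15 arrays (columns) minus its mean over the 3 media arrays, in log2 units; red is higher and blue lower. Rows from Mrpl12 down are red on nearly all stimulated arrays, the lowest rows, which include Mrpl33 and Mrpl48, are mixed, and replicate 3 of PL2-3, CpG and anti-IgM is the reddest array of its group.

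Members of both subunits rose, with Mrps36 left out of the counts by subunit and origin. Of all genes tested, 12.4% rose with PL2-3, 17.2% with anti-IgM+CpG, 13.1% with CpG and 10.1% with anti-IgM. The medians of all genes were -0.10, -0.29, -0.21 and -0.13 in the same order. Of 49 large-subunit members, counting Mrps18a and Mrps30, whose proteins are placed in that subunit, 27 rose with PL2-3, 36 with anti-IgM+CpG, 29 with CpG and 17 with anti-IgM, with median changes of 0.57, 0.95, 0.68 and 0.45. Of 26 small-subunit members, 16, 25, 17 and 12 rose in the same order, with medians of 0.70, 0.99, 0.75 and 0.54. With both agents, 25 large-subunit and 15 small-subunit members rose with the kit read from the actin ratio, with a median of 0.57 in each. In that fit 14.2% of all genes rose with both agents. The 47 members with a bacterial counterpart had medians of 0.60 with PL2-3, 1.05 with anti-IgM+CpG, 0.79 with CpG and 0.51 with anti-IgM. The 28 without one had medians of 0.53, 0.87, 0.49 and 0.42. These differences between classes of members were not tested.

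The 3 genes related to bacterial S18 did not all pass the same tests. In mammals their proteins sit in different ribosomal places, Mrps18a in the large subunit and Mrps18b and Mrps18c in the small one. Mrps18b had signals of 8953, 8345 and 15527 with PL2-3, 13944, 12314 and 14757 with anti-IgM+CpG, 9325, 10188 and 14156 with CpG, 8884, 6607 and 13933 with anti-IgM, against 4742, 6054 and 5097 in media, and rose by 0.99 ± 0.20, 1.36 ± 0.20, 1.06 ± 0.20 and 0.82 ± 0.20 with PL2-3, anti-IgM+CpG, CpG and anti-IgM (SE; limma adjusted p at most 0.00829). Mrps18a had signals of 6146, 4787 and 11189.6 with PL2-3, 8243, 12089 and 12498 with anti-IgM+CpG, 6819.8, 5932 and 9494 with CpG, 5317, 4848 and 11279.5 with anti-IgM, against 3515, 4398 and 6149 in media. It rose by 0.59 ± 0.20 with PL2-3, 1.22 ± 0.20 with anti-IgM+CpG and 0.66 ± 0.20 with CpG, and its change with anti-IgM was 0.53 ± 0.20 (SE; limma adjusted p 0.0376, 0.000148, 0.0186 and 0.0734). Mrps18c had signals of 4611, 4349 and 9085 with PL2-3, 9757, 8302 and 8379 with anti-IgM+CpG, 4165, 5077 and 8982 with CpG, 4095, 3443 and 8363 with anti-IgM, against 4371, 4012 and 7366 in media, and of the stimulated groups all but anti-IgM+CpG overlapped media. Its changes of 0.16 ± 0.22 with PL2-3, 0.18 ± 0.22 with CpG and -0.04 ± 0.22 with anti-IgM did not pass (SE; limma adjusted p at least 0.559), and that of 0.79 ± 0.22 with both agents passed with the kit as labelled and not with the kit read from the actin ratio. The differences between the paralogs were not tested.

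Set directly against anti-IgM, CpG gave 5 members that rose and 0 that fell (limma; at an unadjusted p under 0.05, 17 rose and 1 fell), against 2.57% of all genes tested that rose and 6.41% called in either direction. They were Mrpl22 (0.84 ± 0.19, adjusted p = 0.0121), Mrpl19 (0.84 ± 0.20, 0.0199), Mrpl32 (0.71 ± 0.19, 0.0359), Mrpl14 (0.66 ± 0.16, 0.0208) and Mrpl17 (0.52 ± 0.14, 0.0339). All 5 are large-subunit proteins with bacterial counterparts, in a family with 49 large-subunit members and 47 with a bacterial counterpart. The median difference was 0.22 over the large-subunit and 0.21 over the small-subunit members, and a difference between subunits was not tested. Mrpl32, whose protein is trimmed by the mitochondrial m-AAA protease before assembly, had signals of 10384, 6995 and 8365 with CpG, against 4429, 5415 and 5734 with anti-IgM. Its other signals were 8679.6, 5414 and 5920.1 with PL2-3, 7238, 7259 and 7881 with anti-IgM+CpG, against 3875, 3449 and 3363 in media. Mrpl14 had signals of 5968, 6733 and 5203 with CpG, against 3731, 3865 and 3579 with anti-IgM, and 4808, 3749 and 4492 with PL2-3, 3499.6, 3435 and 3787 with anti-IgM+CpG, against 3714, 3758 and 2655 in media. For both, the CpG arrays were above all 3 anti-IgM arrays, and for Mrpl14 they were above every other array. The median difference over the 76 members was 0.21, and 67 were positive. The count was 1 without a labelling term, 2 on Enzo arrays alone, and 0 when anti-IgM replicate 2 was left out.

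No member differed between PL2-3 and either single agent past the threshold. Against anti-IgM, 0 members were called in either direction (limma; at an unadjusted p under 0.05, 2 rose and 0 fell), where 0.691% of all genes were called, and the median difference was 0.16. Against CpG, 0 members were called (limma; at an unadjusted p under 0.05, 0 rose and 7 fell), where 3.2% of all genes were, and the median difference was -0.07. Mrpl19 had the largest negative difference from CpG, -0.74, with a 95% interval of -1.17 to -0.30 and a limma adjusted p of 0.0665. Mrpl22 had the largest positive difference from anti-IgM, 0.43, with an interval of 0.02 to 0.83 and a limma adjusted p of 0.632. Such intervals do not show that the stimuli act alike.

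With the kit as labelled, the change with both agents was less than the sum of the single changes for 3 members and more for 0 (limma interaction; at an unadjusted p under 0.05, less for 17 and more for 1), against 1.66% of all genes called less and 2.5% called either way. The difference on the log2 scale was -1.01 ± 0.20 for Mrpl15, -0.91 ± 0.21 for Mrps34 and -0.82 ± 0.20 for Mrpl17 (SE; limma adjusted p 0.0178, 0.0367 and 0.0397). Mrps34, a small-subunit protein without a bacterial counterpart, had signals of 6909, 5954 and 10055 with PL2-3, 7541, 7432 and 8108 with anti-IgM+CpG, 8059, 8495 and 10381 with CpG, 7200.4, 5699 and 9739.7 with anti-IgM, against 4336, 3937 and 5428 in media, so the anti-IgM+CpG arrays lay within the range of the arrays with 1 agent. The median over the family was -0.16. With the kit read from the actin ratio 7 members were called and the median was -0.50, and 0 were called without a labelling term, with arrays shifted to the same median or without the trend. The 1.66% and 2.5% of all genes belong to the fit with the kit as labelled. The shares of all genes in the other fits are not given here. Leaving out 1 array gave 0 to 9 members.

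Proteins of the mitochondrial ribosome that carry other names were also higher. Gadd45gip1, Ptcd3 and Chchd1 rose with all 4 stimuli, Gadd45gip1 by 1.55 ± 0.23 with PL2-3, 1.69 ± 0.23 with anti-IgM+CpG, 1.35 ± 0.23 with CpG and 1.15 ± 0.23 with anti-IgM (SE; limma adjusted p at most 0.00213). Dap3, a GTP-binding protein of the small subunit, rose with anti-IgM+CpG and CpG (with both agents the limma adjusted p was 0.138 with the kit read from the actin ratio), and its changes of 0.43 with PL2-3 and 0.29 with anti-IgM did not pass. The import machinery that brings such proteins into mitochondria had 25 genes tested, of which 19 rose with PL2-3, 20 with anti-IgM+CpG, 17 with CpG (1 fell) and 15 with anti-IgM. Of all genes, 12.4%, 17.2%, 13.1% and 10.1% rose in the same order. Timm8a1, a chaperone of the space between the membranes, rose by 2.00 ± 0.16, 2.54 ± 0.16, 2.17 ± 0.16 and 1.89 ± 0.16 (SE; limma adjusted p at most 4.89e-06).

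The other genes of mitochondrial translation were counted in the same way, to be read beside the 12.4%, 17.2%, 13.1% and 10.1% of all genes that rose with PL2-3, anti-IgM+CpG, CpG and anti-IgM. Of 13 translation factors, 3, 5, 4 and 2 rose with PL2-3, anti-IgM+CpG, CpG and anti-IgM, and 1, 1, 0 and 1 fell. Tsfm, the exchange factor for the elongation factor Tufm, rose by 1.11 ± 0.19 with PL2-3 and 1.44 ± 0.19 with CpG (SE; limma adjusted p at most 0.000533), and Qrsl1, part of the enzyme that makes glutaminyl-tRNA in mitochondria, fell by 1.31 with PL2-3. Of 25 assembly and rRNA-modifying factors 6, 9, 7 and 6 rose, with 1 lower with CpG, and Noa1, a GTPase of small-subunit assembly, rose by 1.31 ± 0.16 with PL2-3 and 1.13 ± 0.16 with anti-IgM (SE; limma adjusted p at most 0.000195). Of 15 mitochondrial aminoacyl-tRNA synthetases 2, 5, 5 and 2 rose, and the 13.3% with PL2-3 and with anti-IgM was near the share of all genes. Of 16 genes for mitochondrial DNA and RNA upkeep 5, 9, 8 and 3 rose and 0, 2, 3 and 2 fell. With the kit read from the actin ratio, 3 translation factors, 9 assembly factors, 4 synthetases, 7 upkeep genes and 19 import genes rose with both agents. In that fit 14.2% of all genes rose with both agents. Differences between these lists and the family were not tested.

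Cytosolic ribosomal protein genes, which make the other ribosome of the cell, had median changes of -0.18 with PL2-3, -0.18 with anti-IgM+CpG, -0.12 with CpG and -0.19 with anti-IgM over 41 genes, of which 4, 5, 4 and 4 rose (9.76% to 12.2%, near or below the share of all genes) and 1, 2, 1 and 0 fell. With arrays shifted to the same median these medians turned positive, at 0.00 to 0.42, and with quantile normalization they were 0.02 to 0.06. Over 78 oxidative phosphorylation subunits the medians were 0.19, 0.42, 0.25 and 0.11, while 15, 38, 17 and 13 subunits rose and 2, 5, 6 and 2 fell. Of all genes, 12.4%, 17.2%, 13.1% and 10.1% rose in the same order. With the kit read from the actin ratio the medians with both agents were 0.03 for the cytosolic ribosomal genes and 0.15 for the oxidative phosphorylation subunits, of which 15 rose and 7 fell. The mitochondrial ribosomal medians of 0.59, 0.95, 0.69 and 0.47 stood above both, a difference that was not tested. Of 9 nuclear regulators of mitochondrial genes, 3 rose with PL2-3, 2 with anti-IgM+CpG, 3 with CpG and 3 with anti-IgM. Esrra, a nuclear receptor that acts on genes of energy metabolism, fell by 0.71 with CpG (limma adjusted p = 0.00806). Myc, a growth-promoting factor induced early in activated B cells, rose by 2.10 ± 0.24, 2.25 ± 0.24, 2.13 ± 0.24 and 2.15 ± 0.24, and Pprc1, a coactivator of the PGC family, by 1.36 ± 0.23, 1.30 ± 0.23, 1.44 ± 0.23 and 1.35 ± 0.23 (SE; limma adjusted p at most 0.000726 for both). With the kit read from the actin ratio, the changes with both agents were 2.96 for Myc and 1.51 for Pprc1. In that fit 3 of the 9 regulators rose with both agents. Nrf1 and Gabpa, which are known to act on such genes, had changes between -0.02 and 0.36 that did not pass.

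**Figure D5:**
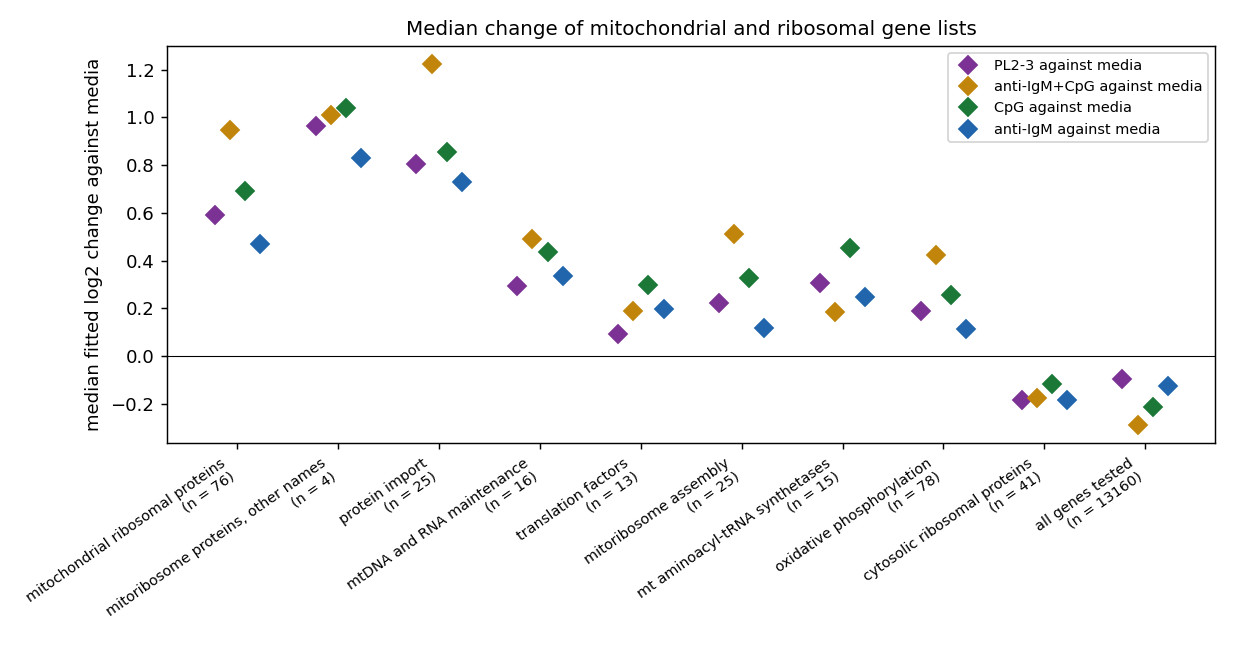
Median fitted log2 change against media (vertical axis) of the mitochondrial ribosomal protein genes, of other mitochondrial and ribosomal gene lists and of all genes tested (horizontal axis, with the number of genes), 1 diamond for each stimulus. The mitochondrial ribosomal proteins lie at 0.47 to 0.95, near the import list at 0.73 to 1.22, and the cytosolic ribosomal proteins lie at -0.19 to -0.12, a sign that turns with other scaling of the arrays.

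Promoters of the family were read because so many members rose together. RefSeq promoter windows, 250 bases before to 50 bases after the start in GRCm38.p6, were found for 67 of the 76 members. They were searched on both strands for a pair of motifs. CCGGAAG, for ETS factors such as GABP, stood in 25 of 67 windows (37.3%), against 12.9% of 17492 coding-gene windows. CACGTG, the E-box that MYC binds, stood in 5 (7.46%), against 8.91%. The median GC content was 58% in the members and 56.3% in all windows, and matches are letters in a window, not sites.

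Members with and without the letters are set side by side only as a description. With CpG, 13 of 25 members with CCGGAAG rose and 26 of 42 without it, and 4 of 5 with CACGTG and 35 of 62 without it. With PL2-3, 13 of 25 members with CCGGAAG rose and 23 of 42 without it. Of the 10 members named above for the size of their changes, 6 had a window here, and those of Mrpl17 and Mrpl22 held CCGGAAG. Both windows are shown for that reason, 5′ to 3′ on the strand of the gene, with the matched letters in capitals. They come from chr7:105811038-105811337 (minus strand, Mrpl17) and chr11:58171414-58171713 (plus strand, Mrpl22), in GRCm38.p6.
Mrpl17: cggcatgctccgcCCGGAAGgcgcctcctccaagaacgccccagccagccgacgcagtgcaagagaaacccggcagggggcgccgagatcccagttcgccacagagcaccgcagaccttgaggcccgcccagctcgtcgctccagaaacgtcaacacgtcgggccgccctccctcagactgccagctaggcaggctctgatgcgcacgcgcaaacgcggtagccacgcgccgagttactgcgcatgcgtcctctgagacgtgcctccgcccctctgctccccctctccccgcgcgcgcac
Mrpl22: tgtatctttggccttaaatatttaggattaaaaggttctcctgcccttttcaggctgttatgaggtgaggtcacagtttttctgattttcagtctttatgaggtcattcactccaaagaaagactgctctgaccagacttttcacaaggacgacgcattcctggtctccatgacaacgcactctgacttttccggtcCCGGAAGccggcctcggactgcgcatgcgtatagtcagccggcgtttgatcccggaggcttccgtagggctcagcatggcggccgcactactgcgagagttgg
The Mrpl17 window holds CCGGAAG at base 14 and the Mrpl22 window at base 198. The Mrpl12 window held neither motif.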

How the data were processed

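The authors deposited a MAS5 signal for each probe set, which is an intensity on a linear scale, per the submitters' processing notes, with no version or target given. Total RNA was taken with Qiagen columns and labelled with biotin, per the labels, with the Enzo kit for replicates 1 and 2 and the Ambion kit for replicate 3 of each group. Groups follow the titles, since the treatment field of the anti-IgM+CpG samples names no agent. Nothing says that replicates came from separate mice or cultures, so p-values measure the spread between these samples, which may be technical. Precision is limited by the number of arrays.

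Probe sets with several symbols (932) or none listed (9160) were left out, as were 64 control probe sets. A gene was tested if it reached the array median on 3 or more arrays. A constant of 75.2 (percentile 20 of the signals) was added before taking log2, and fold changes are on that scale, which understates the change of low genes. All 15 arrays entered one model with terms for group and kit, leaving 9 residual degrees of freedom, with limma 3.58.1 (lmFit, eBayes with a trend) in R 4.3.3. Adjusted p-values are two-sided Benjamini-Hochberg values over all genes tested, with calls under 0.05. Figures used Python 3.11.15 and matplotlib 3.10.9. The fit was tested on simulated data. With 3 arrays a group the smallest exact permutation p is 0.1, and none is given.

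The members, the gene lists and the tests were chosen with earlier results of these data known. Any member could be named; full signals were given for the 5 largest rises against media and the 3 largest in other comparisons among called members, and for members chosen after their values were seen (Mrpl14, Mrpl33, Mrpl48 and the Mrps18 genes). Promoter windows were also searched for NRF1 and YY1 motifs in several forms, whose counts of members differed by over 1.5 times between forms, so no result for them is given. Up to 4 called genes of each other list could be named. Subunits and bacterial counterparts were assigned by hand from background knowledge, and that of Mrps18a, Mrps18b, Mrps28 and Mrps36 was corrected after values had been seen. Alternatives were quantile normalization, a shift of every array to the same median, other pseudocounts and filters, no labelling term, a replicate block, a labelling term read from the actin controls, Enzo arrays only, eBayes without a trend, averaging the probe sets of a gene and leaving out each array. A fit on the 12 arrays without anti-IgM+CpG was added after seeing the data. Of same-numbered pairs of arrays without anti-IgM+CpG, 18 of 18 had deviations from the group mean that correlated above 0.1 (0.12 to 0.68 across genes). Of same-numbered pairs with it, 0 of 12 did. Of different-numbered pairs, 8 of 36 without anti-IgM+CpG did (-0.58 to 0.24 across genes), and 4 of 24 with it. Replicate 3 is the Ambion array of every group and the kit effect was not removed here. These values therefore cannot show whether same-numbered arrays share mice or cultures.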

Additional observations from a re-analysis of the deposited data

Results flagged for a closer look

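For 3 members the change with both agents differed from the sum of the single changes in a test of that difference itself (limma interaction, 15 arrays). The difference was -1.01 on the log2 scale for Mrpl15, -0.91 for Mrps34 and -0.82 for Mrpl17, with adjusted p of 0.0178, 0.0367 and 0.0397. All 3 genes rose with both agents and with each agent alone on the chosen probe set. For Mrpl15 and Mrpl17 another passing probe set went the opposite way with both agents. None of the 3 was called without a labelling term, with arrays shifted to the same median or without the trend, and leaving out 1 array gave 0 to 9 members called. Of the 3, 1 kept its call on Enzo arrays only, 1 with probe sets averaged and 2 with no filter. All 3 kept it with quantile normalization, other pseudocounts, the filter on all 15 arrays and the replicate block. Leaving out any 1 of 9 arrays moved the count by over 1.5 times. All 3 anti-IgM+CpG arrays had a low Xist signal. Replicates 1 and 2, labelled Enzo, had an actin ratio below the Enzo range of the other groups. All 3 genes were also called with the kit read from the actin ratio, and the part of the Xist difference was not tested.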

How the results depend on the processing

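The 187 called member results were set against each alternative that gave a value, 5172 values in all. Of these, 4685 kept their direction and side of the threshold, 480 were no longer past it and 7 turned their direction, with 0 past the threshold in the new one. The 7 came when probe sets were averaged: Mrpl27 with CpG (-0.13) and PL2-3 (-0.03), and Mrpl51 (-0.11), Mrpl58 (-0.25), Mrps11 (-0.24), Mrps14 (-0.03) and Mrps31 (-0.03) with both agents. With arrays shifted to the same median, 73 members were called with both agents, against 61 without the shift. The shift also took the median of all genes with both agents from -0.29 to 0.30. The share of all genes that rose after it is not given here. Among uncalled members with signals given above, Mrpl33 was called with both agents on Enzo arrays only (1.04) and in 5 other settings. Mrpl14 and Mrpl48 were called with both agents after that shift. Mrps18a was called with anti-IgM with actin-based labelling, on the other 12 arrays and without anti-IgM+CpG replicate 2 or 3. Its call with PL2-3 was lost with arrays shifted to the same median, without a labelling term, on Enzo arrays only and without the trend. That call was also lost without replicate 1 or 3 of media or of PL2-3. Its call with CpG was lost without a labelling term, without media replicate 1 or 3 and without CpG replicate 1. Mrps18b lost its call with anti-IgM without a labelling term, on Enzo arrays only and without replicate 3 of media or of anti-IgM. Mrps18c lost its call with both agents without a labelling term and with actin-based labelling. Mrpl45 fell with both agents on Enzo arrays only (-0.73) and not with the 15 arrays (-0.37). Without a labelling term, members called were 14 with anti-IgM, 26 with PL2-3, 1 for CpG against anti-IgM and 0 for non-additivity. Enzo arrays only gave 9 with anti-IgM, 26 with PL2-3 and 2 for CpG against anti-IgM. Without a labelling term 7.41% of all genes rose with anti-IgM and 9.57% with PL2-3. On Enzo arrays only, 5.85% and 8.92% did. With actin-based labelling, both agents gave 40 members and a median of 0.57, non-additivity 7 and -0.50, and PL2-3 against CpG 1. Arrays shifted to the same median gave medians of 1.05 with CpG and 1.54 with both agents, and counts of 1 for CpG against anti-IgM and 0 for non-additivity. That shift moved the all-gene medians to 0.09, 0.30, 0.15 and 0.12 with PL2-3, anti-IgM+CpG, CpG and anti-IgM. The share of higher among called genes became 64.7%, 79.2%, 74.6% and 77.1%, against 47.8%, 40.9%, 43.7% and 52.1% without it. Averaging the probe sets of a gene gave a median of 0.55 with both agents and 3 members for CpG against anti-IgM. Without the trend, 2 were called for CpG against anti-IgM and 0 for non-additivity. Quantile normalization gave 10 for non-additivity and the filter on all 15 arrays 7. The shares of all genes called for non-additivity in the alternative settings are not given here. The fit on the other 12 arrays gave 39, 51 and 48 members with anti-IgM, CpG and PL2-3, and 1 for PL2-3 against CpG. In that fit 11.9%, 14.7% and 14.1% of all genes rose with anti-IgM, CpG and PL2-3. The cause of these shifts was not tested.

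The replicate block changed no count by over 1.5 times (44 with PL2-3, 61 with both agents, 46 with CpG and 30 with anti-IgM). Leaving out 1 array at a time gave 25 to 47 members with PL2-3, 54 to 64 with both agents, 35 to 49 with CpG and 12 to 39 with anti-IgM. It gave 0 to 6 for CpG against anti-IgM, 0 to 1 for PL2-3 against CpG, 0 in each case for PL2-3 against anti-IgM and 0 to 9 for non-additivity. For CpG against anti-IgM, leaving out any 1 of its 6 arrays moved the count by over 1.5 times.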
